A study of Homo sapiens with 6 samples.

Results

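The genes described here write, copy, erase and fuel DNA methylation, or place the repressive mark on lysine 27 of histone H3, and several of them are recurrently mutated in acute myeloid leukemia. They are the 10 rows of the deposited count and FPKM tables with the symbols DNMT1, DNMT3A, DNMT3B, UHRF1, TET1, TET2, TET3, IDH1, IDH2 and EZH2, out of 21857 genes listed. All 10 were found, and 9 of them had enough reads to be tested among 13531 genes. TET1 did not pass the filter on low counts. The data are bulk RNA sequencing of MV4;11, a human acute myeloid leukemia line labelled with FLT3-ITD and MLL-AF4. Both groups come from this 1 line and carry both lesions, and both were grown in RPMI1640 with fetal bovine serum. The 3 control libraries are from cells without flavokawain A (FKA), a chalcone of the kava plant. The 3 FKA libraries are from cells given 10 µg/ml for 48 h. Whether the controls received a solvent, and whether the libraries came from separate cultures, is not given in the sources used here, so p-values measure the spread between these libraries.

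DNA methylation is kept through cell division by DNMT1, which copies the methyl mark onto newly made strands, and by UHRF1, which recognises the hemimethylated site and brings DNMT1 to it. DNMT3A and DNMT3B set new methyl marks. The TET enzymes oxidise 5-methylcytosine as the first step of its removal, and they need 2-oxoglutarate, which IDH1 makes in the cytosol and IDH2 in mitochondria. Mutant forms of IDH1 and IDH2 in leukemia make 2-hydroxyglutarate instead, which inhibits TET enzymes. EZH2 is the catalytic subunit of PRC2, the complex that methylates lysine 27 of histone H3, and EZH1 is its paralog in the same position.

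In cells given FKA the maintenance pair, DNMT3B, EZH2, IDH2 and TET3 had lower transcript levels, while DNMT3A and TET2 had slightly higher ones and IDH1 did not pass the test. Of the 9 tested genes 6 were called lower, against 30.5% of all tested genes, and 2 were called higher, against 29.3% of all tested genes. In total 8 of 9 were called, where 59.8% of all tested genes were. The median log2 fold change of the 9 was -1.0, beside 0.01 over all tested genes. A call means a Benjamini-Hochberg adjusted p under 0.05 in edgeR's quasi-likelihood test over all tested genes. At least 2-fold lower levels were fitted for UHRF1, DNMT1, EZH2, DNMT3B and IDH2, the last of which lay on that limit, and 13.7% of all tested genes were called that far down. In 8 of the 9 genes no FKA library fell within the range of the controls or across it, a separation that 67.3% of all tested genes had.

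Libraries held between 29971171 and 36362421 counts. The 10 myeloid and line markers, among them PTPRC, CD33, SPI1, CEBPA and FLT3, had a summed level of 576 to 597 FPKM in controls and 633 to 666 FPKM with FKA. FPKM are scaled by library totals only, without the TMM scaling used for the fold changes. Of these 10 genes 2 rose, 2 fell and 6 were not called, and the furthest from 0 was the granule enzyme MPO (log2 fold change -5.36, and -6.34 without FKA replicate 3). The 5 markers of T, B, red blood or epithelial cells that were in the tables, of 10 listed, summed to 9.10 to 10.6 FPKM in controls and 6.10 to 9.22 FPKM with FKA. The 9 mesenchymal markers, among them collagen genes and FN1, had a summed level of 0.108 to 1.51 FPKM in controls, 0.211 FPKM in FKA replicate 1, and 8.76 and 8.04 FPKM in FKA replicates 2 and 3. None of the 9 was at 0 in all libraries. The part of these reads in the results was not tested, and values without both of these libraries are given for the genes whose call was lost without them. With no scaling beyond library totals, the median over all tested genes moved to 0.17 (log2) and the test called 4993 genes higher and 3282 lower, against 3959 higher and 4131 lower with the TMM scaling used here. No scaling turned the direction of any of the 9 genes. In bulk RNA, fewer cells of a type and less RNA per cell cannot be told apart.

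The promoters of UHRF1, DNMT1 and EZH2 are shown because these genes fell furthest among the members, and because their first RefSeq promoter window holds the letters of the E2F consensus, the element bound by the factors that drive genes of DNA synthesis. Each stretch runs 5′ to 3′ on the strand of its gene, from upstream into the first transcribed bases, on GRCh38.p14. Capitals mark the E2F letters (TTTCCCGC, TTTCGCGC, TTTGCCGC or TTTGGCGC on either strand) and the CCAAT box (CCAAT, or ATTGG where it lies on the other strand).
UHRF1, chr19:4909401-4909512, + strand: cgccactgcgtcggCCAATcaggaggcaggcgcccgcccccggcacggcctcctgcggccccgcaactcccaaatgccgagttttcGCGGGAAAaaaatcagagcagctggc
DNMT1, chr19:10194942-10195053, - strand: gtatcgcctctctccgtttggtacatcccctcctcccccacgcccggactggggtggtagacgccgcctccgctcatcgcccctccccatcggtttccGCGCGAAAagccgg
EZH2, chr7:148884280-148884391, - strand: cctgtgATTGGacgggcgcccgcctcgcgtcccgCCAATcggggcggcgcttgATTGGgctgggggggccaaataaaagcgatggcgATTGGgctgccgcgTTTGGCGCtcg

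The E2F letters of UHRF1 lay just upstream of its start, those of DNMT1 spanned the start, and those of EZH2 lay just after it. Of the 23 RefSeq windows of 300 bases (250 before and 50 after a start) that belong to the 10 genes, 4 held E2F letters (17.4%), namely the windows of DNMT1 and EZH2 shown and 2 of UHRF1. All RefSeq windows held them in 3.31% of cases, windows of tested genes in 5.01%, and 6 of 12 windows of a list of S phase and division genes did. CCAAT letters, which the motif of E2F does not overlap, were found in 34.8% of the members' windows and in 34.6% of all windows. Of the 12 windows of S phase and division genes, 10 held CCAAT letters (83.3%). DNMT3B, IDH2 and TET3, which were also lower with FKA, had no E2F letters in their windows, and neither had DNMT3A, TET2, TET1 or IDH1. A match is a description of the letters, and several windows of the same gene overlap.

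UHRF1 had the largest change of the 9 genes. Its level was 157, 137 and 173 CPM (TMM-scaled counts per 1000000) in control replicates 1 to 3 and 10.9, 12.3 and 17.1 CPM in FKA replicates 1 to 3. Every FKA library lay far below every control, and the controls were close to each other. The mean went from 155 ± 18.1 to 13.4 ± 3.28 CPM (SD, n = 3 per group), or 11.6 times lower. On the log2 scale the fitted change of UHRF1 was -3.53 with an SE of 0.178 (adjusted p = 2.89e-06 in edgeR). Only 238 of the 13531 tested genes (1.76%) had a lower fold change. Within batches 1, 2 and 3, which by the labels each hold 1 control and 1 FKA library, the log2 difference was -3.85, -3.48 and -3.34.

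DNMT1, the maintenance methyltransferase, was the most abundant of the 10 transcripts per length in controls. Its level was 415, 480 and 558 CPM in the controls and 157, 147 and 158 CPM with FKA. The FKA libraries were almost equal to each other, and the controls were spread more widely without reaching them. The mean went from 484 ± 71.7 to 154 ± 5.74 CPM, or 3.15 times lower. The fitted log2 fold change was -1.65 with an SE of 0.120 (adjusted p = 1.19e-05 in edgeR). Whether DNMT1 and UHRF1 differ in their change was not tested.

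The enzymes that set new methyl marks went in opposite directions. DNMT3B was at 24.2, 47.3 and 42.3 CPM in controls and at 13.7, 18.0 and 14.5 CPM with FKA. Control replicate 1 was well below the other controls but still above every FKA library. The log2 fold change of DNMT3B was -1.30 (SE 0.235, edgeR adjusted p = 0.00135), and its log2 difference was -0.82, -1.40 and -1.55 in batches 1, 2 and 3.

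DNMT3A was at 32.7, 41.3 and 33.3 CPM in controls and at 44.5, 56.6 and 47.0 CPM with FKA. The lowest FKA library was only slightly above the highest control. The log2 fold change was 0.46 (SE 0.132, edgeR adjusted p = 0.014), and batches 1, 2 and 3 gave 0.44, 0.46 and 0.50. The call of DNMT3A was lost in 3 fits of edgeR that left libraries out. Without FKA replicate 2 its log2 fold change was 0.35 (adjusted p = 0.0554), leaving out control replicate 3 gave 0.41 (adjusted p = 0.0571), and leaving out FKA replicates 2 and 3 together gave 0.30 (adjusted p = 0.257).

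**Figure D1:**
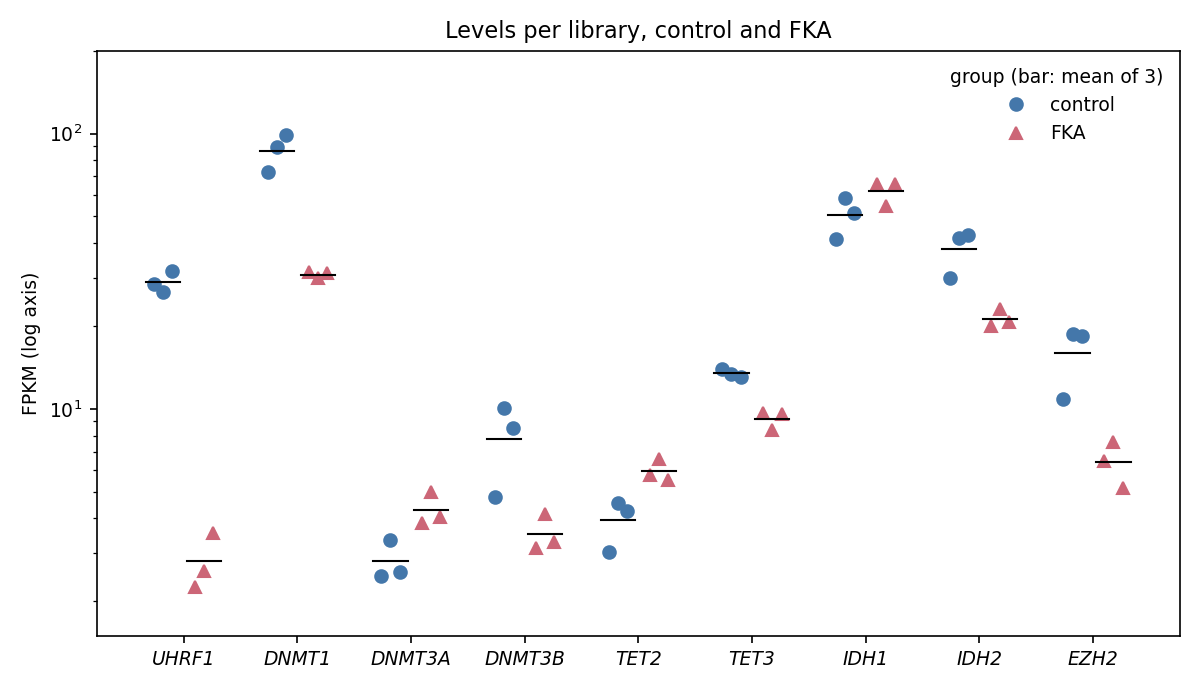
FPKM on a log axis for the 9 tested genes in each of the 3 control libraries (circles) and 3 FKA libraries (triangles), with a bar at each group mean. UHRF1 drops from a mean of 28.9 to 2.79 FPKM, whereas the IDH1 groups overlap, and control replicate 1, the leftmost circle of each gene, is the lowest control for 7 of the 9 genes, all but UHRF1 and TET3.

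The TET enzymes also split. TET3 was at 224, 202 and 206 CPM in controls and at 135, 116 and 135 CPM with FKA. The groups were far apart relative to their spread, with a log2 fold change of -0.71 (SE 0.096, edgeR adjusted p = 0.00028). TET3 was the most abundant of the 3 per length in both groups.

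TET2, the TET gene most often mutated in myeloid leukemia, was at 50.2, 71.1 and 69.7 CPM in controls and at 83.4, 94.4 and 80.5 CPM with FKA. Control replicate 1 was the lowest library, and the groups did not overlap. The log2 fold change was 0.44 (SE 0.138, edgeR adjusted p = 0.0226), and batches 1, 2 and 3 gave 0.73, 0.41 and 0.21. The call of TET2 was lost without FKA replicate 2 (0.37, edgeR adjusted p = 0.0764) and without FKA replicates 2 and 3 together (0.38, edgeR adjusted p = 0.201).

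TET1 was close to absent from the libraries. It had 4, 2 and 6 counts in the controls and 0, 1 and 0 counts with FKA. The ratio of the summed shares, control over FKA, was 10.6 with an exact 95% interval of 1.57 to 453 that covers counting error only. The 3 counts that a value of 0 allows correspond to between 0.0825 and 0.1 counts per 1000000 in these libraries.

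Of the NADP-dependent isocitrate dehydrogenases, the mitochondrial enzyme IDH2 fell and the cytosolic enzyme IDH1 was not called. IDH2 was at 87.5, 115 and 124 CPM in controls and at 51.5, 58.4 and 53.3 CPM with FKA, and each FKA library was below each control. Its log2 fold change was -1.0 (SE 0.132, edgeR adjusted p = 0.000247). IDH1 was at 122, 161 and 149 CPM in controls and at 169, 139 and 169 CPM with FKA, so the groups overlapped. The fitted log2 fold change of 0.14 was about as large as its SE of 0.126 (adjusted p = 0.361 in edgeR), and batches 1, 2 and 3 gave 0.47, -0.22 and 0.18.

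Whether the counting used strand is not stated, so antisense reads cannot be told apart from those of the gene. IDH1-AS1 had 5 to 21 counts per library, against 3779 to 5876 for IDH1. TET2-AS1 had at most 2 counts and the divergent transcript IDH2-DT at most 3 in any library.

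EZH2, the PRC2 methyltransferase, was at 74.4, 120 and 125 CPM in controls and at 38.7, 44.8 and 31.2 CPM with FKA. Control replicate 1 again lay well below the other controls and above all FKA libraries. The mean went from 106 ± 27.9 to 38.2 ± 6.80 CPM, or 2.78 times lower. The fitted log2 fold change was -1.48 with an SE of 0.204 (adjusted p = 0.000318 in edgeR), and the log2 difference was -0.94, -1.42 and -1.995 in batches 1, 2 and 3.

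**Figure D2:**
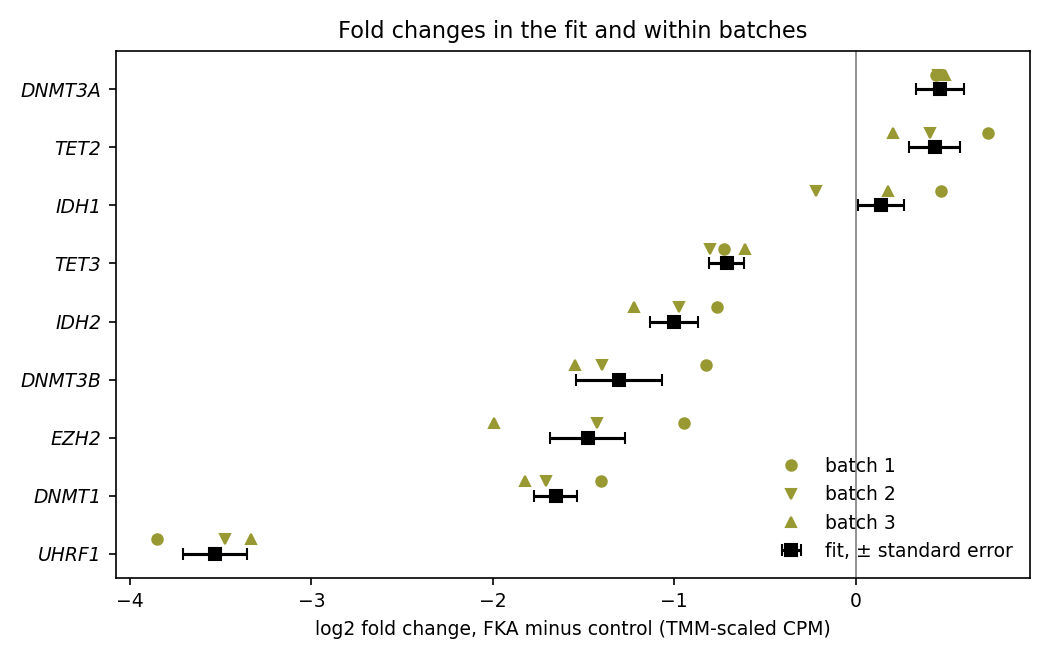
Log2 fold change (FKA minus control) of the 9 tested genes, with black squares for the edgeR fit, bars for its standard error, and olive symbols for the difference within batches 1, 2 and 3. DNMT3A and TET2 lie above 0 and 6 genes lie below 0 in every batch, while the batch values of IDH1 fall on both sides of 0.

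Control replicate 1 had the lowest control FPKM of 7 of the 9 genes, all but UHRF1 and TET3, and some genes of cell division were also low in it. The summed level of the 12 S phase and division genes was 285 FPKM in control replicate 1, against 487 and 526 FPKM in control replicates 2 and 3, and 22.0 to 31.9 FPKM with FKA. Of that list MKI67, a marker of dividing cells, was at 242, 811 and 924 CPM in the controls, and MCM2, a subunit of the replicative helicase, at 163, 142 and 186 CPM (both were chosen here after their values were seen). UHRF1, at 157, 137 and 173 CPM, was not low in control replicate 1. The part of these differences in the results was not tested. Without control replicate 1 the log2 fold change of DNMT3B was -1.55 and that of EZH2 was -1.69. As it was the lowest control for both genes, leaving it out could only move these changes away from 0. All 12 S phase and division genes fell, with a median log2 fold change of -4.22, and the largest falls were those of RRM2 (-7.59), CDC6 (-5.74), TYMS (-5.16) and MCM2 (-5.00). The smallest fall of that list was a log2 fold change of -2.68, so UHRF1 lay within its range and DNMT1, EZH2 and DNMT3B had fold changes nearer to 0 than each of its genes.

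Levels of different genes can be compared only per length. In controls the order of the mean FPKM was DNMT1 (86.8), IDH1 (50.5), IDH2 (38.2), UHRF1 (28.9), EZH2 (16.0), TET3 (13.5), DNMT3B (7.80), TET2 (3.94), DNMT3A (2.80) and TET1 (0.00673). Across libraries the ranges of IDH1 and IDH2, of IDH2 and UHRF1, of EZH2 and TET3, and of TET2 and DNMT3A overlapped. Within single control libraries only EZH2 and TET3 changed order, in control replicate 1. With FKA the order of the mean FPKM was IDH1 (61.9), DNMT1 (30.8), IDH2 (21.3), TET3 (9.19), EZH2 (6.39), TET2 (5.94), DNMT3A (4.30), DNMT3B (3.51), UHRF1 (2.79) and TET1 (0.00066). There the ranges of EZH2 and TET2, of DNMT3A and DNMT3B, and of DNMT3B and UHRF1 overlapped across libraries. DNMT3A was above DNMT3B within each FKA library, while the other pairs changed order in FKA replicate 3. UHRF1 thus went from the fourth place to the ninth. The authors' FPKM use 1 length per gene, from 2704 bases for IDH2 to 16852 bases for TET1 as implied by the 2 tables, so a gene whose cells use a short isoform is placed too low.

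Within families, the balance of the transcripts differed between the groups. DNMT1 made up 89.2% ± 2.02 of the summed FPKM of DNMT1, DNMT3A and DNMT3B in controls and 79.8% ± 2.83 with FKA (SD, n = 3 per group). DNMT3A went from 2.90% ± 0.494 to 11.1% ± 1.46, while DNMT3B was at 7.86% ± 1.87 and 9.09% ± 1.37. In shares of summed counts, which are not per length, the difference was 16.1 percentage points for DNMT3A and -16.4 for DNMT1, against 8.23 and -9.46 in FPKM. The summed FPKM of the 3 enzymes had a mean of 97.4 in controls and 38.6 with FKA.

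TET2 made up 22.6% ± 4.18 of the summed TET transcripts in controls and 39.3% ± 4.14 with FKA, where TET3 supplied nearly all of the rest. IDH1 made up 57.0% ± 2.11 of IDH1 and IDH2 in controls and 74.3% ± 3.47 with FKA. The summed TET level was 17.4 FPKM in controls and 15.1 FPKM with FKA, and the summed level of IDH1 and IDH2 was 88.6 and 83.1 FPKM, so these sums differed far less than that of the DNMT enzymes.

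The largest shift was between the PRC2 paralogs. EZH2 made up 54.8%, 67.3% and 70.3% of the summed FPKM of EZH2 and EZH1 in the controls and 24.0%, 23.8% and 21.8% with FKA, a difference of -40.9 percentage points. The mean of the sum was 24.6 FPKM in controls and 27.5 FPKM with FKA. This sum, like those of the other families, is scaled by library totals only. The TMM factors were 0.921 to 0.985 in controls and 1.05 to 1.07 with FKA. That scaling would lower each FKA sum relative to the controls, but it leaves the shares as they are. In 6 of the 7 shares compared the libraries of the groups did not overlap, which gives the smallest exact permutation p that 3 against 3 libraries allow (two-sided p = 0.1, 0.117 after Benjamini-Hochberg adjustment over the 7). For DNMT3B the exact permutation p was 0.4. None of these tests can pass a threshold of 0.05. Shares within the same family move against each other by construction, so the 7 shares are not separate results. How often shares separate in other gene families was not tested.

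**Figure D3:**
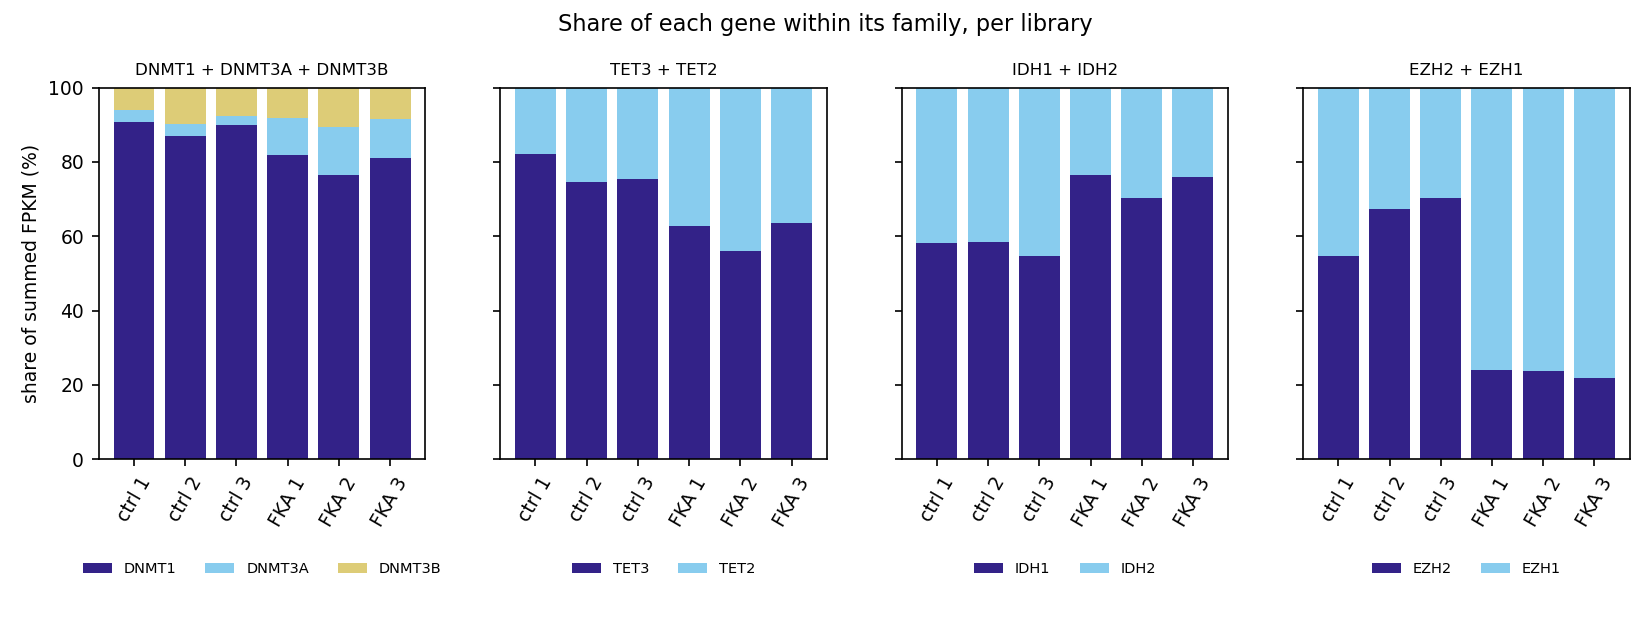
Share of the summed FPKM (percent, vertical axis from 0 to 100) held by each gene of 4 families in each library, in stacked bars. EZH2 holds 54.8% to 70.3% of the EZH pair in controls and 21.8% to 24.0% with FKA. TET1 is too low to be drawn.

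The genes most like a member were found by the smallest distance between log2 CPM profiles over the 6 libraries, each centred on its mean. For EZH2 these were SKA2 (distance 0.112), KLF9 (0.181) and NCAPD2 (0.213). For DNMT1 they were NCAPD3 (0.146), NEMP1 (0.157) and DSN1 (0.171), and for DNMT3B they were DYNC2I2 (0.104), CDC25B (0.120) and MT1F (0.208). UHRF1 had more distant neighbours, namely SMC2-DT (0.252), GPR84 (0.311) and the helicase subunit MCM4 (0.515). With 6 libraries in 2 groups such likeness is mainly a like fold change.

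Of 8 tested genes that work with the DNA methyltransferases or UHRF1, 7 fell, none rose and 1 was not called, with a median log2 fold change of -1.36. Over all tested genes 29.3% were called higher and 30.5% lower, the shares to set beside each list that follows. HELLS, a chromatin remodeller needed for methylation of packed DNA, went from 132, 154 and 155 CPM to 17.6, 23.8 and 14.8 CPM (log2 fold change -2.97, edgeR adjusted p = 5.05e-06). Its activator CDCA7 went from 150, 145 and 140 CPM to 37.5, 31.2 and 28.9 CPM (-2.15, edgeR adjusted p = 3.1e-06). Both sets of libraries were well apart. The replication clamp PCNA, to which DNMT1 binds, stood at -1.89 and the DNA ligase LIG1 at -1.75. USP7, a deubiquitinase that binds DNMT1 and UHRF1, was not called (-0.15, edgeR adjusted p = 0.131), and its sign turned with library totals (0.01).

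Of 8 tested genes for proteins that read methylated CpG sites, 5 rose, 2 fell and 1 was not called, with a median log2 fold change of 0.31. ZBTB4 rose by 0.64, MBD1 by 0.45, and ZBTB38 by 0.77 from about 1 CPM, though ZBTB38 was called in only 7 of 16 alternative fits (edgeR adjusted p = 0.245 without FKA replicates 2 and 3 together). MBD1 too lost its call without both libraries (edgeR adjusted p = 0.0644). MBD2 fell (-0.50) and was called in 13 of 17 alternatives, and ZBTB33, also known as Kaiso, fell (-0.40) but was called in 7 of 17. Without both libraries MBD2 stood at -0.54 (edgeR adjusted p = 0.0669) and ZBTB33 at -0.43 (edgeR adjusted p = 0.161). MBD3, a subunit of the NuRD complex that hardly binds the methyl mark in mammals, was not called (0.08, edgeR adjusted p = 0.395), yet it was called in 4 of 17 alternatives.

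Around the TET enzymes, of 11 tested genes of active demethylation and of TET partners, none rose, 6 fell and 5 were not called (median log2 fold change -0.77). WT1, a zinc finger factor that brings TET2 to its sites, was at 56.4, 57.6 and 64.5 CPM in controls and at 12.1, 8.53 and 12.5 CPM with FKA (-2.43, edgeR adjusted p = 7.68e-06). The DNA glycosylase NEIL3 went from 48.3, 77.4 and 90.6 CPM to 1.99, 3.97 and 5.67 CPM (-4.21, edgeR adjusted p = 2.74e-05), and stood at -5.19 without FKA replicates 2 and 3 together. GADD45A, a stress-induced gene, went from 29.8, 43.4 and 30.8 CPM to 4.41, 4.94 and 13.0 CPM (-2.21), with FKA replicate 3 the highest of its group, and stood at -2.89 without that library. EBF1 had 17, 22 and 21 counts in controls and 4, 1 and 4 counts with FKA. EBF1, counted among the 6 that fell, passed the filter only through the controls, where it is high, so its direction is a description. Its calls in 12 of 15 alternatives rest on the same counts and add no support. Its log2 fold change was -2.67, and -2.24 without a call when FKA replicates 2 and 3 were left out together. OGT, the sugar transferase that binds TET proteins, was the most abundant gene of the list that was not called (-0.06, edgeR adjusted p = 0.767), and its sign turned with library totals (0.10).

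The supply of S-adenosylmethionine, the methyl donor of DNMT enzymes and EZH2, was measured in 8 genes, of which 1 rose, 4 fell and 3 were not called (median log2 fold change -0.45). AHCY, which removes the inhibitory product of methyl transfer, went from 224, 159 and 225 CPM to 106, 82.2 and 129 CPM (-0.94, edgeR adjusted p = 0.00198). MTAP, an enzyme of methionine salvage, stood at -1.46, and AHCYL1 at -0.45 with a call in 8 of 17 alternatives (-0.34, edgeR adjusted p = 0.274, without FKA replicates 2 and 3 together). MAT2A, which makes S-adenosylmethionine, was not called (-0.51, edgeR adjusted p = 0.0885). It was at 890, 482 and 496 CPM in controls and at 484, 358 and 471 CPM with FKA, so the groups overlapped. MAT2A was called in 4 of 17 alternatives, over which its log2 fold change ranged from -0.67 to -0.17. Among the 4 were the batch entered as a block (-0.46, adjusted p = 0.0349 in edgeR) and control replicate 2 left out (-0.67, adjusted p = 0.0386 in edgeR).

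Of 9 enzymes and carriers around 2-oxoglutarate and 2-hydroxyglutarate, 3 rose, 2 fell and 4 were not called (median log2 fold change 0.04). The serine synthesis enzyme PHGDH fell (-1.39, edgeR adjusted p = 0.0267). PHGDH was at 124 CPM in FKA replicate 1, well above the other FKA libraries at 36.8 and 28.9 CPM, and its log2 fold change was -2.34 without replicate 1. Its call was lost in DESeq2 (-1.41, adjusted p = 0.0736), without control replicate 3 (-1.37), without FKA replicate 2 (-1.12), without FKA replicate 3 (-1.04) and without both of the latter (-0.43). ADHFE1, which can make D-2-hydroxyglutarate, rose by 1.43 from under 1 CPM, with a call in 8 of 15 alternatives and none when the batch entered as a block (1.35, adjusted p = 0.0688 in edgeR). Without FKA replicates 2 and 3 together ADHFE1 stood at 0.17. It reached the level that the filter on low counts asks for in 2 controls and 3 FKA libraries, and so passed with the help of the group where it is high. The citrate carrier SLC25A1 rose by 0.59, a call lost without FKA replicates 2 and 3 together (0.43, edgeR adjusted p = 0.165). IDH3G, a subunit of the NAD-dependent isocitrate dehydrogenase, was not called (0.04, edgeR adjusted p = 0.757), and its sign turned without control replicate 2 (-0.03) and without FKA replicate 1 (-0.02).

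The other PRC2 subunits had fold changes nearer to 0 than EZH2, with the exception of PHF19. Of 10 tested, 2 rose, 6 fell and 2 were not called, with a median log2 fold change of -0.43. PHF19, which helps PRC2 onto chromatin, went from 38.6, 79.6 and 77.0 CPM to 10.7, 14.2 and 13.2 CPM (-2.35, edgeR adjusted p = 1e-04), with control replicate 1 again low. The core subunit SUZ12 stood at -0.77 and the accessory subunit JARID2 at -0.66. The histone-binding subunit RBBP4 was not called (-0.29, edgeR adjusted p = 0.0629), but was when the batch entered as a block (-0.28, adjusted p = 0.0356 in edgeR) and when control replicate 2 was left out (-0.40, adjusted p = 0.0131 in edgeR). EZH1 rose from 45.4, 43.1 and 38.9 CPM to 90.5, 106 and 82.8 CPM (1.13, SE 0.113, edgeR adjusted p = 5.95e-05), and the groups were far apart. PHF1 rose by 0.47, a call lost without FKA replicate 3 (0.44, edgeR adjusted p = 0.0548) and without FKA replicates 2 and 3 together (0.42, edgeR adjusted p = 0.186).

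Of 16 subunits of PRC1, the complex that reads the mark of PRC2 and ubiquitylates histone H2A, 6 rose, 6 fell and 4 were not called (median log2 fold change -0.10). Over all tested genes 59.8% were called, 29.3% higher and 30.5% lower. CBX7, a reader of the mark, rose from 1.67, 2.68 and 1.58 CPM to 6.55, 7.88 and 7.54 CPM (1.88, edgeR adjusted p = 0.000225). PHC1 rose by 1.25, a call lost without FKA replicates 2 and 3 together (0.92), and the ubiquitin ligase RING1 rose by 0.95. The reader CBX2 fell (-0.87). RNF2, the other ligase, was not called (0.22, edgeR adjusted p = 0.0859) but was called in 5 of 17 alternatives, among them library totals (0.38, edgeR adjusted p = 0.0157).

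Of 8 tested genes of lysine 27 demethylation and of the BAP1 deubiquitinase, 1 rose, 3 fell and 4 were not called (median log2 fold change -0.16). Over all tested genes 59.8% were called, so this list was not called more often. BAP1 itself rose by 0.59 and its partner FOXK2 fell (-0.56). The demethylase KDM6B (-0.40) and HCFC1 (-0.31) fell, with calls in 10 and 12 of 17 alternatives. Without FKA replicates 2 and 3 together KDM6B stood at -0.28 (edgeR adjusted p = 0.279) and HCFC1 at -0.38 (edgeR adjusted p = 0.0911). ASXL2, a cofactor of BAP1, was not called (-0.16, edgeR adjusted p = 0.175), and its sign turned with library totals (0.00224).

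Of 14 other epigenetic and cohesin genes that are recurrently mutated in acute myeloid leukemia, 2 rose, 5 fell and 7 were not called (median log2 fold change -0.21). With 59.8% of all tested genes called, this list too was not called more often. The corepressor BCORL1 rose from 17.4, 19.9 and 16.5 CPM to 39.2, 43.2 and 36.3 CPM (1.14, edgeR adjusted p = 7.54e-05), and the acetyltransferase EP300 rose by 0.34, with a call in 14 of 17 alternatives (0.35, edgeR adjusted p = 0.146, without FKA replicates 2 and 3 together). The cohesin subunits SMC3 (-1.11), SMC1A (-0.88) and STAG2 (-0.60) fell, STAG2 without a call when FKA replicates 2 and 3 were left out together (-0.52, edgeR adjusted p = 0.0822). SETD2, a histone methyltransferase, was not called (-0.25, edgeR adjusted p = 0.0791), but was without control replicate 1 (-0.37, edgeR adjusted p = 0.00528).

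**Figure D4:**
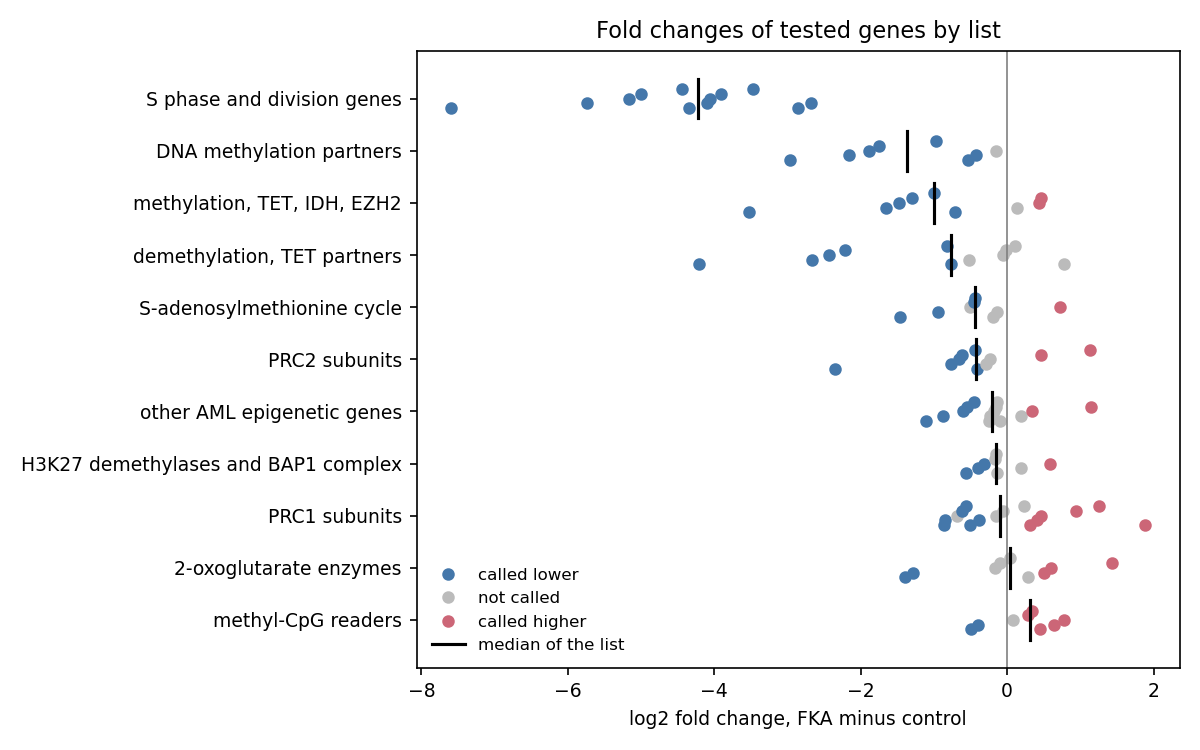
Log2 fold change (FKA minus control) of every tested gene of the members and of 10 lists around them, coloured by call, with a black line at each list's median. The median of the members is -1.0, that of S phase and division genes -4.22, and that of methyl-CpG readers 0.31.

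Few reads came from genes that DNA methylation usually keeps silent. Of 26 listed cancer-testis genes 16 were in the tables and 2 passed the filter on low counts, and most reads came from XAGE1B. XAGE1B had 242, 380 and 240 counts in controls and 140, 128 and 150 counts with FKA. The other 15 genes summed to 15, 14 and 52 counts in controls and to 58, 43 and 48 counts with FKA, so their sums overlapped. XAGE1B fell (-1.01, edgeR adjusted p = 0.00197). SYCP3, a protein of meiotic chromosomes, rose by 1.26 from under 1 CPM (edgeR adjusted p = 0.0449), with a call in 6 of 15 alternatives and none when the batch entered as a block (1.24, adjusted p = 0.0628 in edgeR). It stood at 0.46 without FKA replicates 2 and 3 together. SYCP3 reached the filter's level in 2 controls and 3 FKA libraries, so it passed with the help of the group where it is high. Many cancer-testis genes have near-identical copies, between which reads can be split.

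Of 18 listed developmental genes known as PRC2 targets, 14 were in the tables and 4 passed the filter, all of which were lower with FKA. GATA6 and PAX6 reached the level the filter asks for (0.299 counts per 1000000) in all 3 controls and in 2 and 1 of the FKA libraries, so they passed through the controls, where they are high, and their direction is a description. BMP2 and OLIG2 reached it in all 6 libraries. GATA6 went from 5.41, 10.2 and 10.1 CPM to 0.528, 0.25 and 0.662 CPM (-4.14), and PAX6 from 1.83, 3.91 and 3.99 CPM to 0.342, 0.0625 and 0.144 CPM (-4.13, and -4.91 without FKA replicate 1). BMP2 stood at -1.20 and OLIG2 at -0.99, the latter with a call in 13 of 17 alternatives. The summed counts of the 14 genes were 970 to 1544 in controls and 362 to 564 with FKA. Nearly all of these counts came from the 4 genes that passed the filter, so the sum repeats their change and says little of the others.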

How the data were processed

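RNA of 6 libraries, 3 control and 3 FKA, was sequenced, and groups follow the titles. The authors deposited whole-number read counts per gene and FPKM values. The FPKM equal count over column total and 1 length per gene (largest relative deviation 6.9e-07). For the aligner, counter, annotation and kit, nothing is stated in these sources. Builds named in the submitters' processing notes are GRCm38 and mm10, both mouse, while the symbols are human, so no coordinates rest on the build of the tables. Promoter sequences and their coordinates are RefSeq's on GRCh38.p14, matched by symbol for all 10 genes. Replicates differed by more than sampling of reads allows (chi-square divided by its degrees of freedom 21.7 or more), so none was counted as a copy.

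Counts were tested in R 4.3.3 with edgeR 4.0.16 (filterByExpr, TMM, quasi-likelihood test, Benjamini-Hochberg over all 13531 genes). SE is the absolute log2 fold change over the square root of F. The biological coefficient of variation was 15.4%. The test was tried on simulated data in which few genes were changed, unlike these data, so it does not check the scaling. Exact permutation tests were used for family shares. Same-numbered libraries share a batch label, and the correlations of their deviations from the group means were 0.11, 0.43 and -0.08 in batches 1, 2 and 3. Alternatives were the batch block, RLE, upper-quartile and unscaled totals, DESeq2 1.42.0, other filters, limma 3.58.1 on log2 of FPKM plus 1 or 0.1, and leaving out libraries.

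The members, lists and named genes were chosen with earlier results of these data known. All members were named, from each list up to 4 called genes with the largest change, those against the majority, and the most abundant gene not called, and the 3 nearest profiles of 4 members. Some genes counted in the lists are not reported here by name.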

Additional observations from a re-analysis of the deposited data

How the results depend on the processing

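In the 17 alternative fits UHRF1, DNMT1, DNMT3B, EZH2, IDH2 and TET3 stayed called lower and IDH1 stayed uncalled, each with 1 sign. Ranges of the log2 fold change were -3.85 to -2.99 for UHRF1, -1.76 to -1.46 for DNMT1, -1.55 to -0.92 for DNMT3B, -1.69 to -1.17 for EZH2, -1.14 to -0.80 for IDH2, -0.75 to -0.51 for TET3 and 0.02 to 0.30 for IDH1.

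Without FKA replicates 2 and 3 together, which leaves 1 FKA library assumed to vary like the controls, the test called 2020 genes higher and 2599 lower, 0 of the members higher (2 in the full data) and 8 context genes higher (23 in the full data). Leaving out 1 library at a time gave 0 to 2 members called higher.

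Signs turned in 4 genes that were not called. USP7 was at 0.0096 with library totals and at 0.0094, 0.0097 and 0.0094 in the limma fits (plus 1, plus 0.1, and plus 1 with a filter on mean FPKM). OGT was at 0.0096 with upper-quartile scaling, 0.10 with library totals, 0.082, 0.083 and 0.082 in the limma fits, 0.095 without FKA replicates 2 and 3 together, and from -0.15 to 0.10 when 1 library was left out. IDH3G ranged from -0.033 to 0.11 when 1 library was left out, and ASXL2 was at 0.0022 with library totals.

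With the batch label as a replicate block, 4066 genes were called higher and 4223 lower, and the members kept 2 calls higher and 6 lower. Among the named genes the block gained MAT2A and RBBP4 and lost ADHFE1 and SYCP3, and it changed no other call. The shares of the families kept their direction under every alternative that gave a value. Shares of counts in place of FPKM moved DNMT3A to 16.1 and DNMT1 to -16.4 percentage points. With 3 libraries a group no exact test over libraries can pass 0.05, and the few counts of TET1 limit what can be said of it. The causes of these shifts were not tested.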
